A study of Homo sapiens with 12 samples.

Results

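The death receptor pathway genes described here are 10 genes of extrinsic apoptosis, listed by symbol: the receptors TNFRSF10A, TNFRSF10B and FAS, the ligand TNFSF10, the adaptors FADD and TRADD, the kinase RIPK1, the initiator caspases CASP8 and CASP10, and the caspase regulator CFLAR. Members were found as the probes whose platform gene symbol is exactly one of these names, without use of any measured value. The list of names itself was chosen with earlier results of these data known. Of the 10 genes, 9 had a probe, with 16 probes among the 48803 on the array, and RIPK1, which matched none by symbol, was not analysed here. Of the 18852 genes named by a single-symbol probe, 8092 were tested, and 8 of them were members.

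The cells were L-540, an established human Hodgkin lymphoma line kept in culture. Treatment lasted 24 h, with perifosine at 10 µM, sorafenib at 5 µM or a combination of the 2 drugs at those concentrations, and control cells received neither. Each of the 4 groups had 3 Illumina BeadChip arrays with the letters A, B and C. Perifosine is a phospholipid analogue known to inhibit AKT, and sorafenib is a multikinase inhibitor. All groups come from a single cell line, and no label states that arrays A, B and C came from separate cultures. The p-values therefore reflect array-to-array spread alone, some of which may be technical. Animal samples named in the series title were not analysed here.

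Death receptors are cell surface proteins of the TNF receptor family that carry an intracellular death domain. When TRAIL, the product of TNFSF10, binds the receptors encoded by TNFRSF10A (DR4) and TNFRSF10B (DR5), or when FAS ligand binds FAS, the adaptor FADD recruits procaspases 8 and 10 into a complex in which they become active. FLIP, the product of CFLAR, resembles caspase 8 and competes for that complex, while TRADD and RIPK1 serve the TNF receptor. Hodgkin lymphoma cells are known for high FLIP levels and for resistance to FAS-mediated death.

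Promoter windows of FAS, a receptor gene that rose with sorafenib, and of TNFSF10, the ligand gene of the TRAIL receptors, are shown. Both come from RefSeq (build GRCh38.p14), run 5′ to 3′ on the gene's strand, and are 300 bases long. The TNFSF10 window spans the annotated start of the gene. The FAS window begins at 88990548, inside the annotated gene, whose start is at 88964050. Capitals mark every match, on either strand, to the motifs searched, which are given after the sequences.
FAS, chromosome 10, plus strand: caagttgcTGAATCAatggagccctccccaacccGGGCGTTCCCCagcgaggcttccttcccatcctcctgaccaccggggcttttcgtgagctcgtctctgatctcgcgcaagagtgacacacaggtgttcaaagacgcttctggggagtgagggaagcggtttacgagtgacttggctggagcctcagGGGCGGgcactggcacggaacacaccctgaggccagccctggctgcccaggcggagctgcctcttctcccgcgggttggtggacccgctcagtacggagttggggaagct
TNFSF10, chromosome 3, minus strand: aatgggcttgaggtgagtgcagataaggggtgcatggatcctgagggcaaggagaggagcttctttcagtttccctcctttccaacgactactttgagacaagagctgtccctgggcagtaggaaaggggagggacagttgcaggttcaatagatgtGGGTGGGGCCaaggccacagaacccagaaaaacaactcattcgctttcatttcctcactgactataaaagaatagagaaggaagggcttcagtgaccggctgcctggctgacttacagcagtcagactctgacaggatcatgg
The FAS window is the one of lowest start among 3 for that gene, and TNFSF10 had 1 window.

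The motifs searched were the GC box GGGCGG, the NF-kB type GGGNNNNNCC, the ATF4-CHOP composite TGATGNAA, the AP-1 type TGANTCA with its form TGACTCA, and the STAT type TTCNNNGAA. In the FAS window there were 1 GC box, 3 overlapping NF-kB type matches in 1 run and 1 match to TGANTCA, and the TNFSF10 window held 1 NF-kB type match. Over all 35116 windows of the table, 45% held GGGCGG, 58.7% held GGGNNNNNCC, 7.71% held TGANTCA, 4.95% held TGACTCA, 7.66% held TTCNNNGAA and 3.62% held TGATGNAA. The members had 15 windows over 6 genes, of which 10 held GGGCGG, 9 held GGGNNNNNCC, 5 held TGANTCA, 2 held TGACTCA (both of CASP8), 1 held TTCNNNGAA and 0 held TGATGNAA. A match is a description of letters and not a site, and the motif set was settled after a first search of these windows. On the RefSeq assembly CFLAR, CASP10 and CASP8 follow each other on chromosome 2 as neighbouring protein-coding genes.

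Detection differed among members. A probe counts as detected on an array where its detection p, against that array's negative-control beads, is under 0.01. Of the 16 member probes, 7 were detected on all 12 arrays, covering 6 genes: TNFRSF10A, TNFRSF10B, TNFSF10, FADD, CFLAR and TRADD. The filter required detection on at least 3 of 12 arrays and kept 12 member probes. The single FAS probe was detected on 0 of 3 perifosine arrays, 3 of 3 sorafenib arrays, 2 of 3 combination arrays and 1 of 3 control arrays. It therefore passed only through the arrays with sorafenib. The CASP8 probe used for the gene was detected on 1 of 3 perifosine arrays, 2 of 3 sorafenib arrays, 2 of 3 combination arrays and 1 of 3 control arrays. Neither CASP10 probe was detected on any array, so CASP10, the other initiator caspase, was not well above background in these cells and was not tested.

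**Figure D1:**
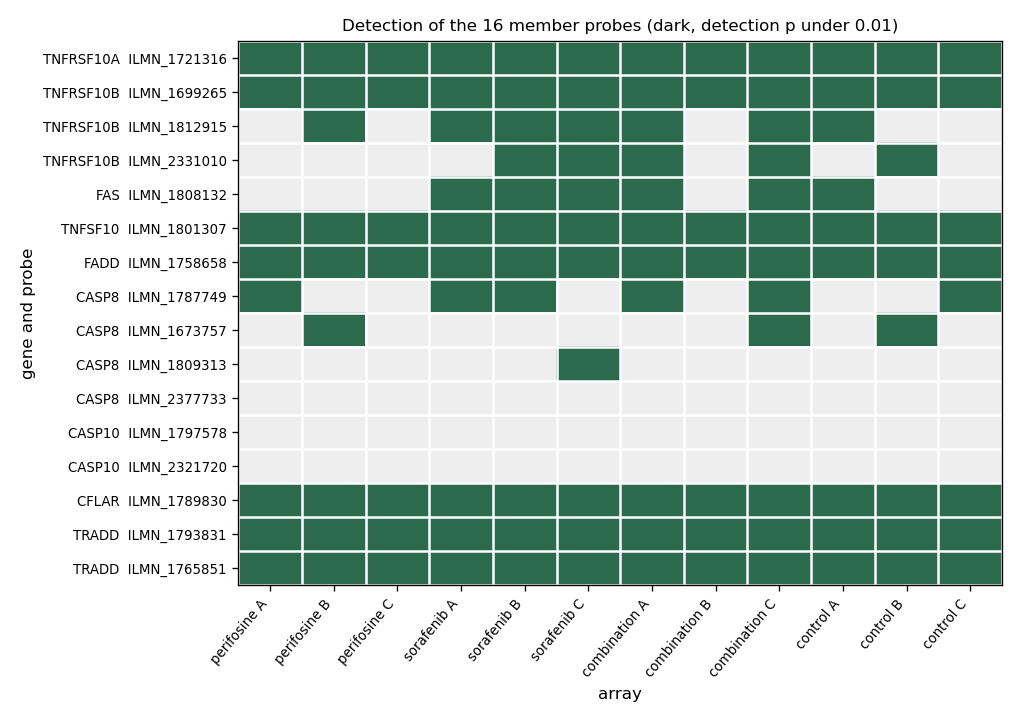
Detection of the 16 member probes (rows) on the 12 arrays (columns, by group and letter). A dark cell is a detection p under 0.01. FAS is dark on 0 of 3 perifosine arrays, 3 of 3 sorafenib arrays, 2 of 3 combination arrays and 1 of 3 control arrays, and both CASP10 rows are light throughout.

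The arrays detected 9291 to 11657 probes, and correlations within groups ran from 0.956 to 0.984. Combination array B stood apart, with a median raw intensity above that of any other array (648.7), fewer probes detected than elsewhere and an array weight of 0.291, also the lowest. A total of 8 comparisons was made in limma over all 8092 genes, each adjusted on its own by the Benjamini-Hochberg method, and a gene is called where its adjusted p is under 0.05. The comparisons share arrays, and those averaged over the other drug are built from the single ones. Levels below are log2 intensities after background correction and quantile normalization, and a level cannot be compared between probes. In bulk RNA of this kind fewer cells with a transcript and less transcript per cell cannot be told apart.

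Sorafenib moved the receptors in opposite directions. Averaged over perifosine, with 6 arrays with sorafenib against 6 without, TNFRSF10B and FAS rose and TNFRSF10A fell, which made 3 of 8 tested members called, against 13.3% of all genes (1080 of 8092). The median change of the tested members was 0.34 on the log2 scale, against 0.0023 over all genes. Of the 8, 6 were above 0, against 50.3% of all genes. The median lies between FADD (0.18) and CASP8 (0.50), and CASP8 was at -0.052 under median scaling, so the median is loosely fixed. FAS was detected on 5 of 6 arrays with sorafenib and 1 of 6 without, and the CASP8 probe on 4 and 2 of 6. Neither would have passed the filter on the arrays without sorafenib alone. FAS and CASP8 were thus tested only through the arrays with sorafenib, where both had the higher mean. The call of FAS is no separate support for the count, and neither gene is for the median or the share above 0.

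**Figure D2:**
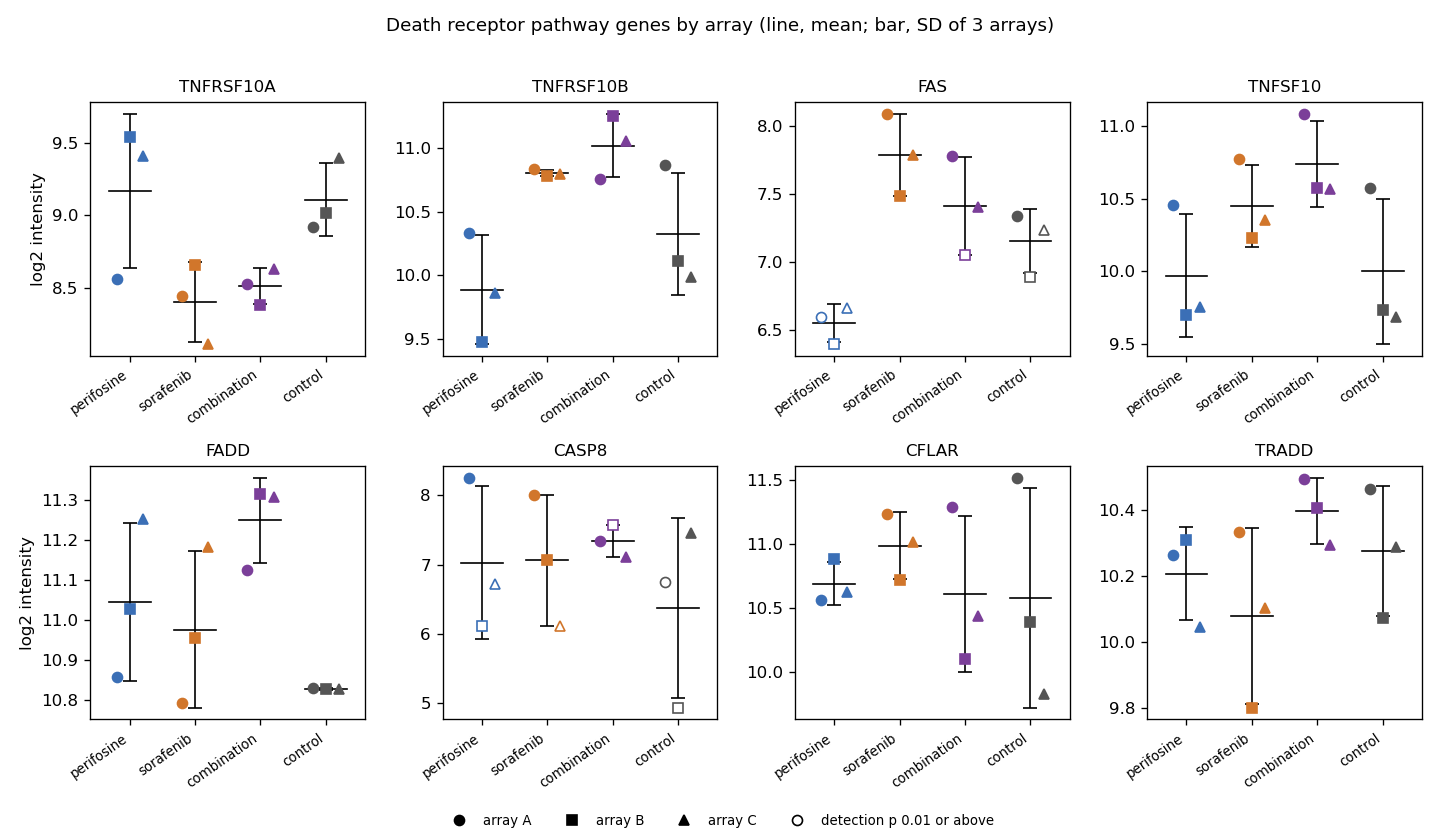
Log2 intensity of the 8 tested members on each array, in panels with their own axes, with groups perifosine, sorafenib, combination and control from left to right. Lines are means and bars are SD of 3 arrays, and open symbols are arrays with a detection p of 0.01 or above. TNFRSF10B is higher and TNFRSF10A is lower on most arrays with sorafenib, and perifosine array A and control array A lie nearest to them for TNFRSF10B.

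TNFRSF10B encodes DR5, a TRAIL receptor. Its bright probe read 10.33, 9.47 and 9.86 on the perifosine arrays A, B and C, 10.83, 10.78 and 10.80 with sorafenib and 10.75, 11.25 and 11.05 with the combination, against 10.87, 10.11 and 9.98 in control cells. The 3 sorafenib arrays were nearly equal, while control array A was as high as they were and perifosine array A was the highest of its group. Perifosine arrays averaged 9.89 ± 0.429, sorafenib arrays 10.80 ± 0.0264 and combination arrays 11.02 ± 0.250, against 10.32 ± 0.478 in control cells (SD, n = 3).

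With sorafenib averaged over perifosine, TNFRSF10B rose by 0.81 ± 0.183 (SE), or 1.75-fold (limma, adjusted p = 0.0160). The change was 0.94 without control array A and 0.92 without perifosine array A, and 0.75 without combination array B, all called. Under median scaling it was 0.82 and not called (limma, adjusted p = 0.0708). In the combination against perifosine it rose by 1.13 ± 0.259 (SE), or 2.19-fold (limma, adjusted p = 0.0446), and the arrays of these groups did not overlap. It was the 1 member called there among 8, against 2.39% of all genes. This call was lost when any of 10 of the 12 arrays was left out, each in turn, with adjusted p from 0.0538 to 0.173, and held without control array A and without perifosine array A. With median scaling its adjusted p was 0.262. With the mean of its kept probes the change was 0.73 and not called (limma, adjusted p = 0.0557).

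The other comparisons of TNFRSF10B were not called. It was 0.70 ± 0.259 (SE) above control with the combination (limma, adjusted p = 0.154) and 0.48 ± 0.259 above control with sorafenib (limma, adjusted p = 0.373), where control array A overlapped the treated arrays. With perifosine it was -0.44 ± 0.259 relative to control (limma, adjusted p = 1), and 0.061 when its kept probes were averaged. The gene has 2 more probes, both dim. Averaged over perifosine they were 0.66 ± 0.217 and 0.72 ± 0.220 higher with sorafenib (limma over kept probes, adjusted p = 0.0749 and 0.0569), neither past the threshold. They were detected on 5 and 4 of 6 arrays with sorafenib, against 2 and 1 of 6 without, so these folds are at least 1.20 and 1.04. Neither dim probe would have passed the filter on the arrays without sorafenib alone, so they are no separate support for the rise. In the combination against perifosine the same 2 probes were at least 1.11-fold and 1.12-fold higher and not called (limma over kept probes, adjusted p = 0.518 and 0.320). The 2.19-fold rise there is thus that of the bright probe.

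**Figure D3:**
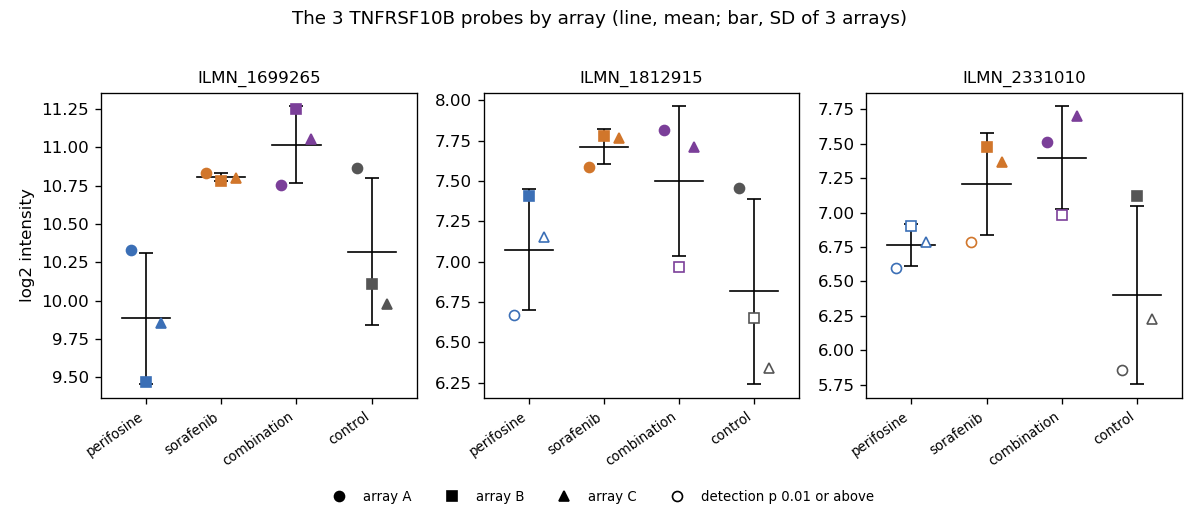
Log2 intensity of the 3 TNFRSF10B probes on each array, each panel on its own axis, with lines for means, bars for SD of 3 arrays and open symbols for a detection p of 0.01 or above. The left probe, detected on all 12 arrays, is the one used for the gene. All 3 probes have higher means on the arrays with sorafenib than on those without it. The middle and right probes passed the filter only through the arrays with sorafenib.

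FAS encodes the CD95 receptor. Its probe read 6.59, 6.39 and 6.66 with perifosine, 8.09, 7.49 and 7.79 with sorafenib and 7.78, 7.05 and 7.41 with the combination, against 7.34, 6.89 and 7.24 in control cells. The perifosine arrays were the lowest 3 of all, the sorafenib arrays were above all control arrays, and combination array B overlapped with the control arrays. Perifosine arrays averaged 6.55 ± 0.140, sorafenib arrays 7.79 ± 0.302 and combination arrays 7.41 ± 0.364, against 7.16 ± 0.237 in control cells (SD, n = 3).

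Averaged over perifosine, FAS rose by 0.75 ± 0.153 (SE) with sorafenib (limma, adjusted p = 0.00997). It was called in each of the alternatives in which it was tested, with adjusted p from 0.00149 to 0.0495. In the authors' normalized table the change was 0.21. Since it was detected on 1 of 6 arrays without sorafenib, the fold is given as at least 1.27. With sorafenib alone against control it was 0.63 ± 0.216 (SE) higher, at least 1.41-fold, and not called (limma, adjusted p = 0.159). A further fit, chosen after seeing the data, took the letter as a replicate block over the perifosine, sorafenib and control arrays, whose letters paired. In that fit FAS was called (limma, adjusted p = 0.0279), as were 7.48% of all genes. In the combination against perifosine it was 0.86 ± 0.216 (SE) higher, at least 1.13-fold (limma, adjusted p = 0.0600).

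With perifosine FAS was at lower values without passing the test. The probe was detected on 0 of 3 perifosine arrays and 1 of 3 control arrays, so both levels are bounds and no difference is given (limma, adjusted p = 1).

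TNFRSF10A encodes DR4, the other TRAIL receptor. It read 8.56, 9.54 and 9.41 with perifosine, 8.44, 8.66 and 8.11 with sorafenib and 8.53, 8.38 and 8.63 with the combination, against 8.92, 9.01 and 9.40 in control cells. All arrays with sorafenib lay below all control arrays, while perifosine array A lay among the arrays with sorafenib. Perifosine arrays averaged 9.17 ± 0.532, sorafenib arrays 8.40 ± 0.276 and combination arrays 8.51 ± 0.125, against 9.11 ± 0.252 in control cells (SD, n = 3).

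Averaged over perifosine, TNFRSF10A fell by 0.68 on the log2 scale with sorafenib (SE 0.177, fold 0.623, limma, adjusted p = 0.0283). This call was lost without any of 5 of the 12 arrays (control B or C, perifosine B or C, sorafenib C), with adjusted p from 0.0506 to 0.0722, without a filter (0.0634) and under median scaling (0.264). Against control its change was -0.71 ± 0.251 with sorafenib and -0.60 ± 0.251 with the combination (SE), not called in either (limma, adjusted p = 0.172 and 0.203). Over the 12 arrays its Pearson r with TNFRSF10B was -0.84, and that of TNFRSF10B with TNFSF10 was 0.81. The arrays share groups and letters, so these are descriptions.

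TNFSF10 encodes TRAIL. It read 10.46, 9.70 and 9.75 with perifosine, 10.77, 10.23 and 10.35 with sorafenib and 11.09, 10.58 and 10.57 with the combination, against 10.58, 9.73 and 9.68 in control cells. Array A was the highest of its group in all 4 groups, and all combination arrays lay above all perifosine arrays. Averaged over perifosine it was 0.61 ± 0.202 (SE) higher with sorafenib and missed the threshold (limma, adjusted p = 0.0666). It was called in 7 of the 20 alternatives, among them the authors' normalized table (0.44, limma, adjusted p = 0.0368), and without control array A (0.76, limma, adjusted p = 0.0242) or perifosine array A (0.74, limma, adjusted p = 0.0329). Against control it was 0.74 ± 0.286 (SE) higher with the combination (limma, adjusted p = 0.166) and 0.46 ± 0.286 higher with sorafenib (limma, adjusted p = 0.464).

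FADD, the adaptor between receptor and caspase, read 10.86, 11.03 and 11.25 with perifosine, 10.79, 10.95 and 11.18 with sorafenib and 11.13, 11.31 and 11.31 with the combination, against 10.83, 10.83 and 10.83 in control cells. The combination arrays and the perifosine arrays lay above all control arrays, and the sorafenib arrays overlapped with the control arrays. The combination was 0.42 ± 0.151 (SE) above control and was not called (limma, adjusted p = 0.142). TRADD, the adaptor of the TNF receptor, had 2 probes, both detected on all 12 arrays. Averaged over perifosine they differed by -0.0028 ± 0.119 (95% interval -0.26 to 0.26 for the probe that represents the gene) and 0.04 ± 0.114 between arrays with and without sorafenib. Under median scaling the first was 0.020, so TRADD had no settled direction.

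CASP8 encodes the initiator caspase 8 and was measured poorly. The probe used for the gene read 8.26, 6.11 and 6.72 with perifosine, 8.01, 7.07 and 6.11 with sorafenib and 7.35, 7.57 and 7.11 with the combination, against 6.74, 4.93 and 7.45 in control cells. The groups overlapped, and the SD within a group reached 1.30 in control cells. Averaged over perifosine its change with sorafenib was 0.50 with a 95% interval from -0.54 to 1.55, while its other kept probe was at -0.06 ± 0.204 (SE), so this array could not resolve CASP8. Under median scaling the CASP8 change was -0.052 and in the authors' normalized table -0.012. CFLAR read 10.56, 10.88 and 10.63 with perifosine, 11.24, 10.72 and 11.01 with sorafenib and 11.29, 10.10 and 10.44 with the combination, against 11.52, 10.39 and 9.83 in control cells. Its control arrays alone spanned the values of all other groups, and the change with sorafenib averaged over perifosine was 0.16 with a 95% interval from -0.44 to 0.77. Without control array C it was -0.024, and without combination array A -0.0064.

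**Figure D4:**
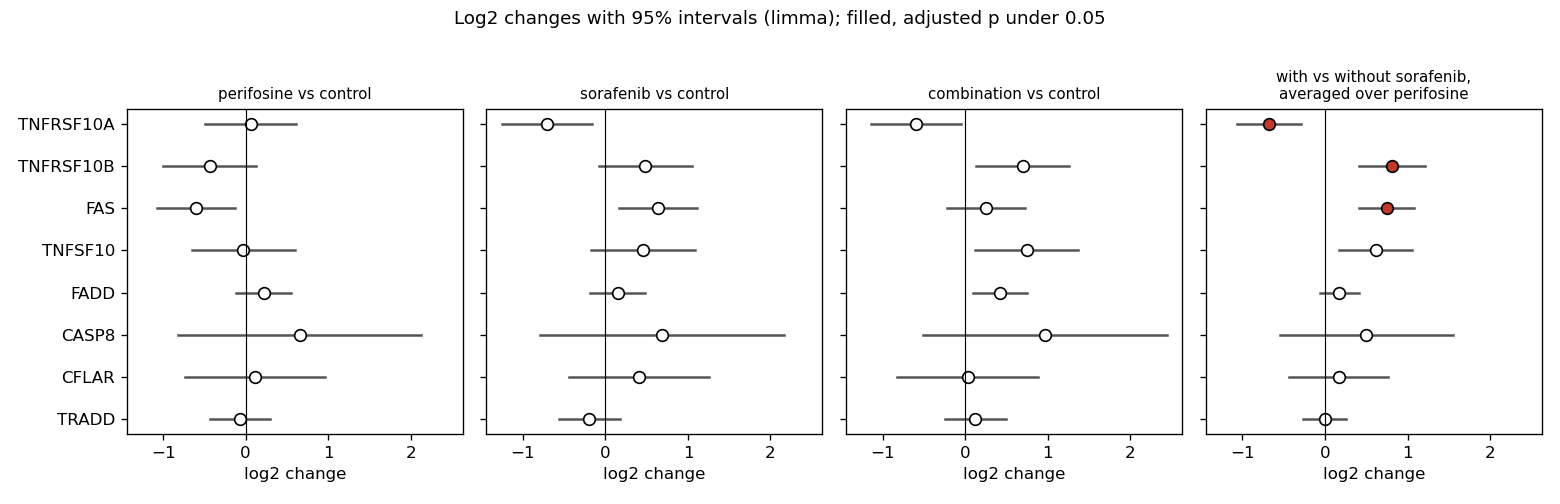
Log2 changes of the 8 tested members with 95% intervals from limma, for perifosine, sorafenib and the combination against control, and for arrays with against without sorafenib averaged over perifosine. Filled points have an adjusted p under 0.05, which holds for TNFRSF10A, TNFRSF10B and FAS in the last panel. CASP8 has the widest interval in every panel.

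Over the remaining comparisons, which follow, no member passed. No member was called for perifosine against control, where 0% of all genes were called in limma, and 1 member and 198 genes (2.45%) had an unadjusted p under 0.05. None was called for sorafenib against control, against 1.47% of all genes, with 2 members at an unadjusted p under 0.05, against 16.9% of all genes. None was called for the combination against control in limma, against 3.41% of all genes, with 4 members at an unadjusted p under 0.05, against 20.9% of all genes. Of the combination against sorafenib, perifosine averaged over sorafenib, and the interaction, which sets the combination's change against the 2 single-drug changes added together, 0% of genes were called in limma, and members with an unadjusted p under 0.05 numbered 0, 2 and 0, against 2.03%, 2.73% and 2.01% of all genes. The interaction of TNFRSF10B was 0.65 ± 0.366 (SE), with a 95% interval from -0.15 to 1.45 (limma, adjusted p = 1). That value is of its bright probe, while its 2 dim probes were at -0.47 and -0.17, so the interaction had no settled direction.

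By the likeness rule, the 3 genes of highest Pearson r with TNFRSF10B over the 12 arrays were MAN1B1 (0.946), STRADA (0.938) and RINL (0.934), and the lowest were SS18L2 (-0.961), RRAGC (-0.931) and PSMD1 (-0.92). FAS was most like GGTLC2 (0.924), CGB5 (0.923) and ZNF18 (0.903) and least like TFRC (-0.96), RBMS1 (-0.927) and EMP1 (-0.924). For TNFRSF10A the highest were GATC (0.92), VCP (0.92) and FAM3C (0.915), and the lowest were DIDO1 (-0.93), KLHL9 (-0.925) and TNFRSF14 (-0.916). These values carry no test.

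A list of 62 other genes of extrinsic apoptosis, chosen with earlier results known, gave 45 tested genes. Averaged over perifosine, 7 rose and 1 fell with sorafenib, against 13.3% of all genes called, with a list median of 0.14. Among ligands TNF, detected on 3 of 6 arrays with sorafenib and 6 of 6 without, fell by 0.86 on the log2 scale (limma, adjusted p = 0.0104). It was detected on 1 of 3 combination arrays, so its level there is a bound and the size of this fall is not exact. Of receptors TNFRSF21, the death receptor DR6, rose by 1.18 (limma, adjusted p = 0.00716). Among 19 adaptors and regulators TRAF1, an adaptor of TNF receptors, rose by 0.87, FAF1, a FAS-associated factor, rose by 0.54, and PEA15, a death effector domain protein, rose by 0.38. The calls of PEA15 and FAF1 held in 11 and 18 of 20 alternatives, and that of TRAF1 in 19 of 20. FAF1's second kept probe was at -0.02 (limma over kept probes, adjusted p = 0.969), and with the mean of its probes FAF1 was at 0.26 (limma, adjusted p = 0.216). FASLG, TNFRSF10D, BID and XIAP had probes under the filter, and TRAF2, BIRC3, SPATA2 and ARHGEF2, which matched no probe by symbol, were not analysed here.

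Among transcription factors known to act on TNFRSF10B or TNFSF10, 3 of 7 rose with sorafenib averaged over perifosine, against 13.3% of all genes called in either direction. DDIT3, which encodes CHOP, read 10.85, 9.96 and 10.03 with perifosine, 11.39, 11.43 and 11.62 with sorafenib and 11.88, 11.35 and 11.83 with the combination, against 10.89, 9.91 and 10.10 in control cells. All arrays with sorafenib lay above all without, and the change was 1.30 ± 0.204 (SE, limma, adjusted p = 0.00328). ATF4 rose by 0.57 (limma, adjusted p = 0.0285), though its other probes were at -0.25 and 1.04, and ATF3 rose by 0.71 (limma, adjusted p = 0.0306). ATF4 was called in 11 of 20 alternatives (limma, adjusted p from 0.00770 to 0.350) and ATF3 in 10 of 20 (0.00594 to 0.146), both lost without a filter and under median scaling, while DDIT3 was called in all 20. Control array A and perifosine array A were the highest of their groups for DDIT3, ATF3 and TRAF1 as for TNFRSF10B. For ATF4, perifosine array A was the lowest of its group (13.04). Over all genes these 2 arrays deviated from their group means together (r = 0.355). FOXO1, FOXO3, SP1 and YY1 were not called.

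Of 3 tested genes of necroptosis 0 were called with sorafenib averaged over perifosine in limma, and 1 had an unadjusted p under 0.05, against 28.3% of all genes. RIPK3, a kinase of that pathway, was at -0.48, the effector MLKL at 0.42 and the sensor ZBP1 at 0.44 (limma, adjusted p = 0.0941, 0.215 and 0.268). Of 9 tested executioners and mitochondrial genes 0 were called in limma, and 2 of them had an unadjusted p under 0.05, against the same 28.3%. The largest by size were the caspase CASP6 (0.52), APAF1 of the apoptosome (-0.46), the mitochondrial protease HTRA2 (0.36) and DIABLO, an antagonist of inhibitors of apoptosis (0.32, limma, adjusted p = 0.0518). In the combination against control FAF1 (0.76) and DDIT3 (1.39) rose (limma, adjusted p = 0.0372 and 0.0272), called in 6 and 14 of 21 alternatives. In the combination against perifosine DDIT3 (1.41) rose (limma, adjusted p = 0.0320), called in 13 of 21 alternatives. TNF was detected on 1 of 3 combination arrays, against 3 of 3 perifosine arrays, and was at least 1.84-fold lower (limma, adjusted p = 0.0421), called in 8 of 20 alternatives.

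**Figure D5:**
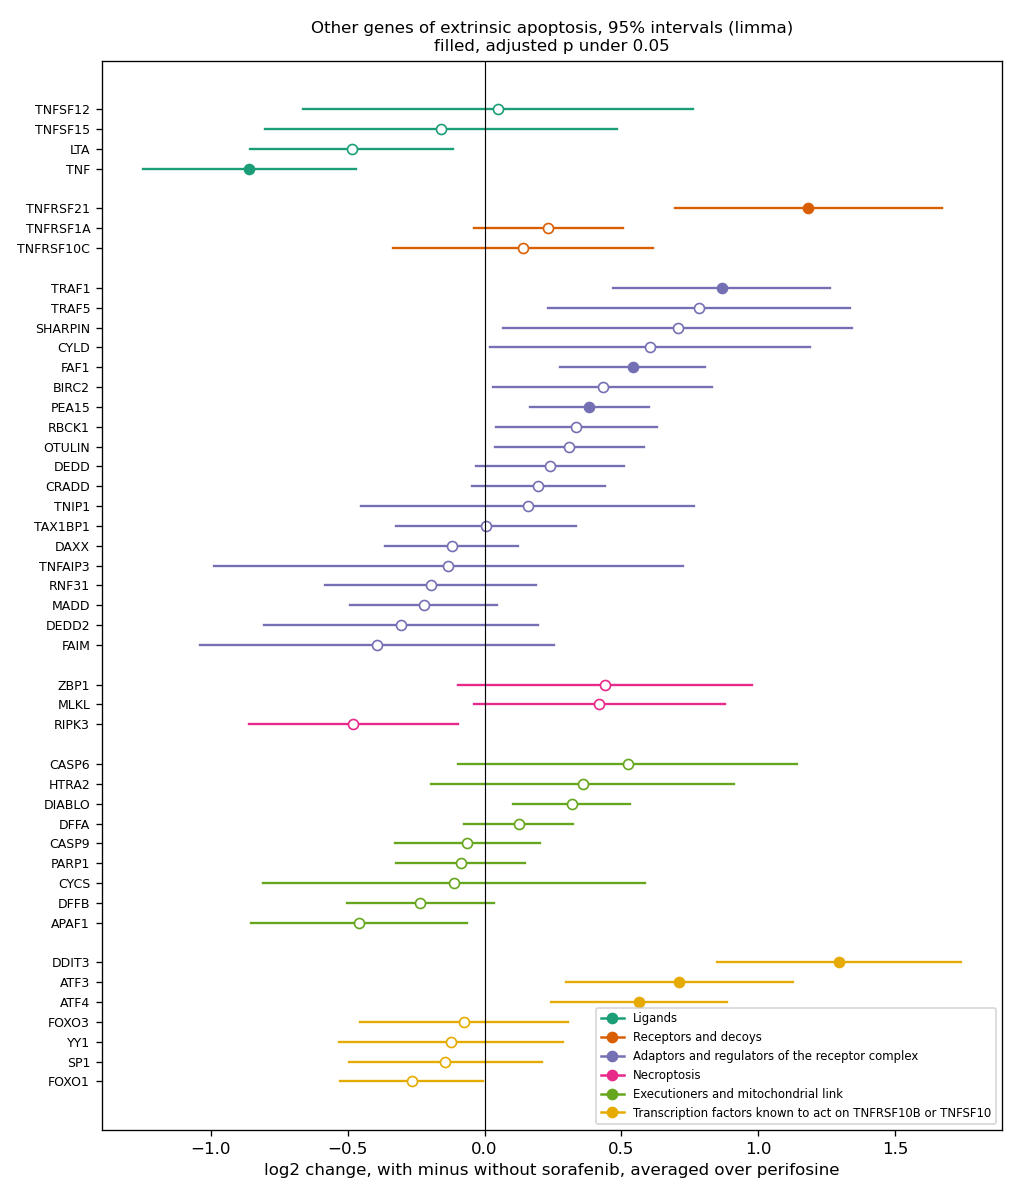
Log2 change, with minus without sorafenib and averaged over perifosine, of the 45 tested genes outside the members, coloured by role, with 95% intervals from limma. Filled points have an adjusted p under 0.05. DDIT3 (1.30) and TNFRSF21 (1.18) are the largest called values and TNF is the filled point below 0.

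Markers of other cell types were examined beside these changes. Of 10 T and NK markers 5 were tested. NKG7, CD247, CD2 and PRF1 were detected on all 12 arrays and GZMB on all but combination array B, while CD3D, CD3E, CD3G, CD5 and CD7 were below the filter. Of 9 Hodgkin markers 6 were tested and detected on the control arrays, CCL17, CCL22 and IL13 were below the filter, and epithelial and endothelial markers had 0 tested genes. TNFRSF8, which encodes CD30, fell by 0.78 on the log2 scale and PRF1, which encodes perforin, fell by 0.73 with sorafenib averaged over perifosine (limma, adjusted p = 0.00468 and 0.00911), while TRAF1, also a Hodgkin marker, rose as given above. The other tested markers of these 2 lists were not called, from -1.36 for GZMB to 0.37 for CD2. Of the 6 macrophage markers 3 were tested, and their summed level was 2212 to 2459 with perifosine, 3019 to 3507 with sorafenib and 3271 to 4280 with the combination, against 2081 to 3229 in control cells. This level is led by CSF1R, which rose by 0.58 (limma, adjusted p = 0.0158), while CD68 (-0.11) and S100A8 (-0.28) were not called, and CD14, CD163 and LYZ were below the filter. Of 6 B cell markers 1 was tested (BLK, 0.25), and of 4 fibroblast markers 2 were tested (COL3A1 at -0.14 and PDGFRA at -0.44), none called in limma. All these values come from the 1 cultured line. The part of these markers in the changes of the receptors was not tested.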

How the data were processed

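RNA of 12 samples of L-540 cells was measured on Illumina arrays. The deposited unnormalized table holds a mean bead intensity and a detection p-value per probe and array, per the file headers, and a second deposited table holds the authors' normalized intensity, with a normalization that the sources used here do not give. Per the submitters' processing notes, BeadStudio was used. From the first table, background was corrected and values were quantile normalized with neqc (offset 16) of limma 3.58.1 in R 4.3.3 and put on a log2 scale. The deposited values were at least 230.9 and array medians 404.3 to 648.7, so they were taken as not background-subtracted. Their number, 3 arrays per group, limits the precision.

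Kept probes had a detection p under 0.01 on 3 or more arrays (11904, of which 10117 had 1 gene symbol). Over all probes, 28098 had 1 symbol, 13 had several and 20692 had none in the platform annotation. A gene was its kept probe of highest mean. One model with a mean per group was fitted to all 12 arrays (lmFit, eBayes) and p-values were adjusted within each comparison. Where a group had fewer than 2 arrays with a probe detected, its level is a bound, the higher of its own level and the lowest level of a detected probe, and such folds are written "at least". The fits were tested on simulated data.

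Members and gene lists were chosen with earlier results of these data known. Named genes were all members, the listed genes past the threshold (otherwise up to 4 per role by size of the sorafenib change), and the 3 genes of highest and lowest r with each called member. Arrays of the same letter deviated together in perifosine and control (r from 0.265 to 0.355), sorafenib and control (0.186 to 0.334) and perifosine and sorafenib (0.234 to 0.385), all above the limit of 0.1. With the combination this held for letter A (0.231 to 0.319) and not for letter B (-0.161 to -0.0985). Letter C passed the limit only between combination and sorafenib arrays (0.169). Alternatives were another background correction, median scaling, the authors' table, 2 filters, the mean of probes, array weights, the letter as a block, the groups of the comparison alone and each array left out.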

Additional observations from a re-analysis of the deposited data

How the results depend on the processing

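FAS, called with sorafenib averaged over perifosine, was called in all 19 alternatives that tested it, with changes from 0.21 to 0.84, and could not be tested where detection on all 12 arrays was required. TNFRSF10B was called there in 19 of 20 alternatives and TNFRSF10A in 13 of 20. Under median scaling 1 of the members was called (FAS), among 154 genes against 1080. In the combination against perifosine the count of members was 0 under median scaling, without a filter, with the mean of the kept probes and with the groups of the comparison alone, 2 with array weights, and 0 to 2 when arrays were left out in turn. The letter as a replicate block gave 1 member for sorafenib against control (FAS), 1 for the combination against control (TNFSF10) 3 for the combination against perifosine (FAS, TNFRSF10B and TNFSF10) and 4 in the averaged comparison (TNFSF10 added), and it changed no other member's call. All genes were called at 4.99%, 8.03%, 6.19% and 18.6% in these 4 fits. With the combination letter A paired, letter B did not and letter C was mixed, so the block is not supported for the last 3. TNFSF10 had adjusted p of 0.0129, 0.0123 and 0.00260 there (limma). The block over the perifosine, sorafenib and control arrays, chosen after seeing the data, gave 1 member for sorafenib against control (FAS) among 605 genes, against 119 without it. The mean of kept probes gave 1 for the combination against control (TNFRSF10B, whose dim probes passed the filter only through the arrays with sorafenib). The cause of these differences was not tested.
Median scaling left 8, 4 and 3 genes called for sorafenib and the combination against control and the combination against perifosine, of which 75%, 100% and 100% were higher, against 64.7%, 67.8% and 66.3% of 119, 276 and 193 genes. In the averaged comparison 69.5% were higher, against 58.8%.
Of the 86 values of named genes 21 took the opposite sign in some alternative, and 0 of the 60 alternative values concerned, like their main values, were called in limma. Under median scaling these were TNFRSF10A with perifosine against control (-0.0080), CFLAR with the combination against control (-0.015), TRADD in the averaged sorafenib comparison (0.020), and CASP8 with sorafenib against control (-0.23), averaged (-0.052) and in the interaction (0.36). The same CASP8 values were -0.11, -0.026 and 0.17 with the other background correction and -0.053, -0.012 and 0.082 in the authors' table, where TRADD was at 0.00022 averaged and the TNFRSF10A interaction at -0.00079. With array weights the interaction was -0.025 for TNFRSF10A and -0.013 for FADD, and CFLAR was at 0.025 for perifosine averaged over sorafenib. With the mean of kept probes TNFRSF10B was at 0.061 for perifosine against control and 0.063 for perifosine averaged over sorafenib, and TRADD was at 0.020 for sorafenib averaged.
Leaving out each array in turn gave both signs for 19 values. For TNFRSF10A they ran from -0.13 to 0.37 for perifosine against control, -0.034 to 0.24 for the combination against sorafenib, -0.0063 to 0.24 for perifosine averaged and -0.25 to 0.24 for the interaction. TNFRSF10B ran from -0.22 to 0.026 for perifosine averaged, TNFSF10 from -0.27 to 0.26 for perifosine against control and FADD from -0.038 to 0.16 for the interaction. CASP8 ran from -0.069 to 1.19 and -0.034 to 1.23 for perifosine and sorafenib against control, -0.14 to 0.93 and -0.20 to 0.75 for the combination against perifosine and against sorafenib, and -0.91 to 0.35 for the interaction. CFLAR ran from -0.26 to 0.58 for perifosine against control, -0.35 to 0.50 for the combination against control, -0.42 to 0.17 for the combination against perifosine, -0.024 to 0.40 for sorafenib averaged and -0.32 to 0.10 for perifosine averaged. TRADD ran from -0.17 to 0.025 for perifosine against control and -0.066 to 0.067 for sorafenib averaged.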
